A study of Mus musculus with 9 samples.

Results

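The colon flora of epithelial Jup-knockout mice was set against that of wild-type mice during acute colitis. The 5 samples were chosen by their titles, 3 knockout and 2 wild-type samples taken with dextran sodium sulfate (DSS), out of 9 samples in the series. All 5 were DNA from colon content of mice that drank 2.5% DSS for 5 days. Knockout (KO) mice were iVilCreERT2Jupfl/fl: both Jup alleles were floxed, and a drug-inducible Cre recombinase was driven by the villin promoter. That promoter acts in the epithelium of the intestine and leaves other cells of the gut wall unrecombined. Wild-type (WT) mice were Jupfl/fl, with the same floxed alleles and no Cre transgene named. The 4 basal samples, 2 KO and 2 WT, had the same genotypes without DSS and serve as background. The labels give no age, sex, cage, litter or Cre-inducing treatment. The DSS experiment had n = 10 in the series design, and 5 samples are analysed here. Nothing in the labels ties each sample to an animal of its own, so the spread behind each p-value may be partly technical.

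Jup encodes plakoglobin, an armadillo-repeat protein that links desmosomal cadherins to keratin filaments and also sits in adherens junctions, where it helps to hold epithelial cells together. DSS damages the colonic epithelium and brings luminal bacteria into contact with the mucosa. In acute colitis the bacterial community often loses diversity, with a few taxa taking a larger part of it. Evenness describes how equally a community's members share the total, and dominance is its opposite.

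The deposited table counts sequence features, each a distinct amplified sequence known only by an identifier of 32 hexadecimal characters. The table pairs no identifier with a sequence or a taxon, so no feature is assigned to a bacterium here. Each feature is called by a rank, with rank 1 the highest mean share across the 5 DSS samples, a share being the feature's count over the sample's total. Totals ran from 361636 to 451515 counts in the DSS samples and from 341216 to 404861 in the basal samples. In the 5 DSS samples 584 features were found, and 377 of them had 10 or more counts in at least 2 samples and were kept for tests. Kept features held 95.9% to 99.5% of each sample's counts. No host gene is counted, and genotype labels could not be checked against Jup itself. KO DSS 3 stood apart from the other KO samples and WT DSS 2 from WT DSS 1, as described below, and the main results that rest on either are also given without it.

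In KO colitis 3 features made up most of 2 samples and, beside rank 1, a different group of features led the other. The features of rank 1, 2 and 4 were the 3 most abundant features in KO DSS 1 and in KO DSS 2. Feature d8d889a018ba3bc3f9e109d45abf7d57, of rank 2, held 20.2%, 32.8% and 0.0528% of the KO samples in turn. In the WT DSS samples it held 0.765% and 1.51%, so KO DSS 3 lay below both WT samples and the other KO samples lay far above them. The KO mean was 17.7% ± 16.5 (SD, n = 3) and the WT mean 1.14% ± 0.530 (SD, n = 2), 15.5 times as high, or 8.88 times without KO DSS 2 and 23.2 times without KO DSS 3. The log2 difference was 4.32 ± 2.71 (SE; edgeR quasi-likelihood, adjusted p = 0.736).

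The feature of rank 4 followed the same samples. It held 15.4%, 12.3% and 0.0852% of the KO samples in turn, and 1.501% and 8.94% of the WT DSS samples. The groups overlapped through KO DSS 3, and the log2 difference was 1.57 ± 2.22 (SE; edgeR adjusted p = 0.995), or 1.92 without KO DSS 3. Together ranks 2 and 4 held 35.6%, 45.0% and 0.138% of the KO samples and 2.27% and 10.5% of the WT samples. In basal samples the same pair held between 0.462% and 8.80%.

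WT colitis was led by another feature. Feature 30907231438cda380cbac09516004cba, of rank 3, was the most abundant of both WT DSS samples, at 32.4% and 11.2%. It held 0.0846% of KO DSS 1, 0.0322% of KO DSS 2 and 4.66% of KO DSS 3. Both WT samples lay above all 3 KO samples, and both also lay above the 4 basal samples, whose highest value was 2.21%. The WT mean of 21.8% ± 15.0 (SD, n = 2) was 13.7 times the KO mean of 1.59% ± 2.65 (SD, n = 3). That ratio was 374 without KO DSS 3 and 7.06 without WT DSS 1. On the model's log2 scale the KO minus WT difference was −3.56 ± 2.44 (SE; edgeR adjusted p = 0.851). This feature made the largest contribution of any to the mean Bray-Curtis distance between the genotypes (described below), 15.6% of it, ahead of rank 2 with 13.3%. Rank 2 also differed within genotypes. With the mean contribution within genotypes subtracted, 0.0631 of distance was left for rank 3 and 0.00354 for rank 2.

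KO DSS 3 had dominant features that no other DSS sample shared. The feature of rank 5 held 16.8% of it and between 0.0124% and 0.0797% of the other 4 DSS samples. Rank 7 held 9.26% of KO DSS 3 and 0.0221% to 1.54% elsewhere, rank 13 held 5.47% and 0.0236% to 1.04%, and rank 14 held 5.34% and 0.0135% to 0.549%. The sum of these 4 features was 36.8% in KO DSS 3 and at most 2.32% in any other DSS sample. In basal samples the sum was 14.05% and 8.14% in WT and 28.2% and 9.32% in KO. In this sum KO DSS 3 therefore lay above the range of the 4 basal samples, and the other DSS samples lay below it. Taken singly, ranks 5 and 7 in KO DSS 3 lay above their highest basal shares, 5.76% and 4.12%. Ranks 13 and 14 lay within their basal ranges, which reached 7.32% and 11.6%. Since KO DSS 3 alone carries the high values among DSS samples, the mean of rank 5 over KO samples, 83.3 times the WT mean, became 0.208 times the WT mean without KO DSS 3.

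The feature of rank 1 was the only one above 5% in 4 of the 5 samples. It held 20.5% and 1.92% of the WT samples and 25.5%, 13.9% and 19.1% of the KO samples. WT DSS 2 stood below the other 4, and the log2 difference was 0.68 ± 2.16 (SE; edgeR adjusted p = 0.995). Its basal shares had a wider range, from 1.89% to 43.3%. Rank 6 was the last of the 9 features above 5% of any DSS sample, at 5.06% of WT DSS 1 and 6.53% of KO DSS 3. The feature closest to that threshold from below was rank 10, at 4.40% of WT DSS 1. The 9 features together held 61.9% of WT DSS 1, 63.5%, 59.7% and 67.3% of the KO samples, and 26.1% of WT DSS 2. The 95% Wilson intervals of their shares reached at most 0.144 percentage points to either side. They account for counting error alone and treat each read as a separate draw. Amplified reads do not each stand for a molecule, so the intervals may be too narrow even for that.

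**Figure D1:**
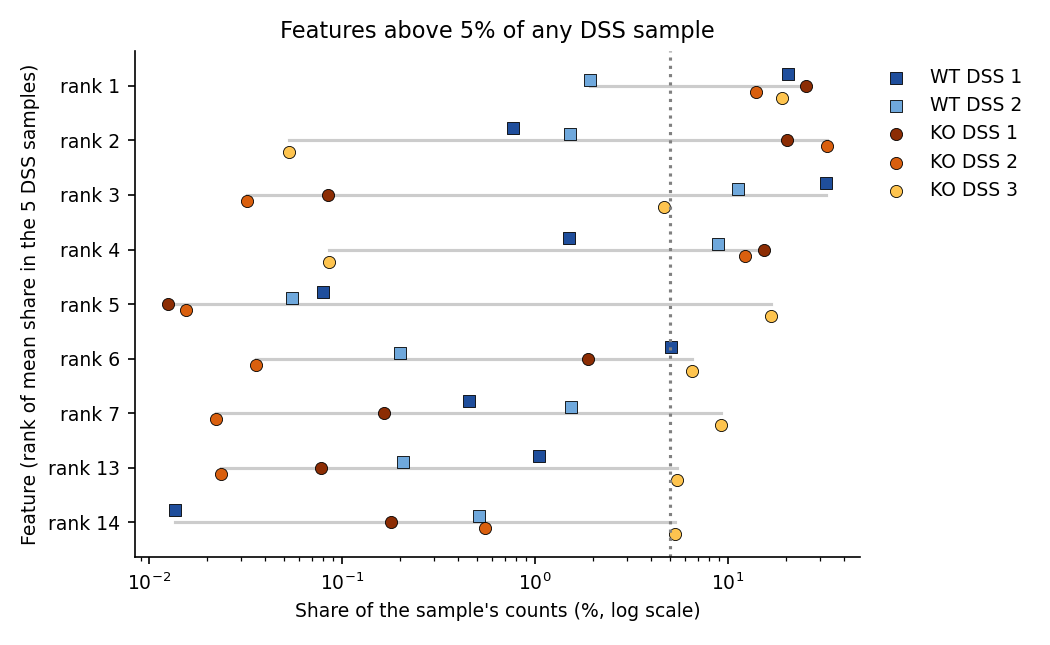
Share of counts (%, log scale) of the 9 features above 5% of any DSS sample, with 1 point per sample, squares for WT and circles for KO; the grey line spans the 5 samples and the dotted line marks 5%. Ranks 2 and 4 lie far right in KO DSS 1 and KO DSS 2, rank 3 in both WT samples, and ranks 5, 7, 13 and 14 in KO DSS 3.

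The next question was how evenly the counts were spread. In the KO samples 3, 3 and 4 features were enough to reach 50% of the counts, and 25, 44 and 36 to reach 90%. WT DSS 1 needed 2 and 42 features, while WT DSS 2 needed 14 and 80. Rank 1 was the first or second feature of all 3 KO samples and of WT DSS 1, and WT DSS 1 shared 5, 4 and 5 of its 10 most abundant features with the KO samples. WT DSS 2 was the most even of the 5. WT DSS 2 had 27 features above 1% of its counts, against 13 in WT DSS 1 and 14 in each KO sample.

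Pielou evenness, the Shannon index over its largest possible value, was 0.510, 0.522 and 0.567 in the KO samples and 0.514 and 0.720 in the WT samples. The KO mean was 0.533 ± 0.0297 (SD, n = 3) and the WT mean 0.617 ± 0.146 (SD, n = 2). KO minus WT, the difference in means came to −0.0837, with p = 0.5 in a two-sided exact permutation test whose 10 arrangements allow no p under 0.1. Without WT DSS 2 it was 0.0194. The inverse Simpson index, the number of equally common features that would give the same dominance, was 7.40, 6.85 and 11.3 in KO and 6.43 and 30.5 in WT samples. For the share held by a sample's 10 most abundant features, KO samples had 77.8%, 72.3% and 73.7%, and WT samples 74.8% and 43.0%, a difference of 15.7 percentage points (exact two-sided permutation p = 0.3) that was −0.198 without WT DSS 2. The number of features expected at 361636 counts was 273, 361 and 313 in KO and 325 and 359 in WT samples, a difference of −26.3 features (exact two-sided permutation p = 0.5). It was −5.03 without KO DSS 1, −49.0 without KO DSS 2, −43.4 without WT DSS 1 and −9.34 without WT DSS 2. None of these exact tests can pass 0.05 with 3 and 2 samples.

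**Figure D2:**
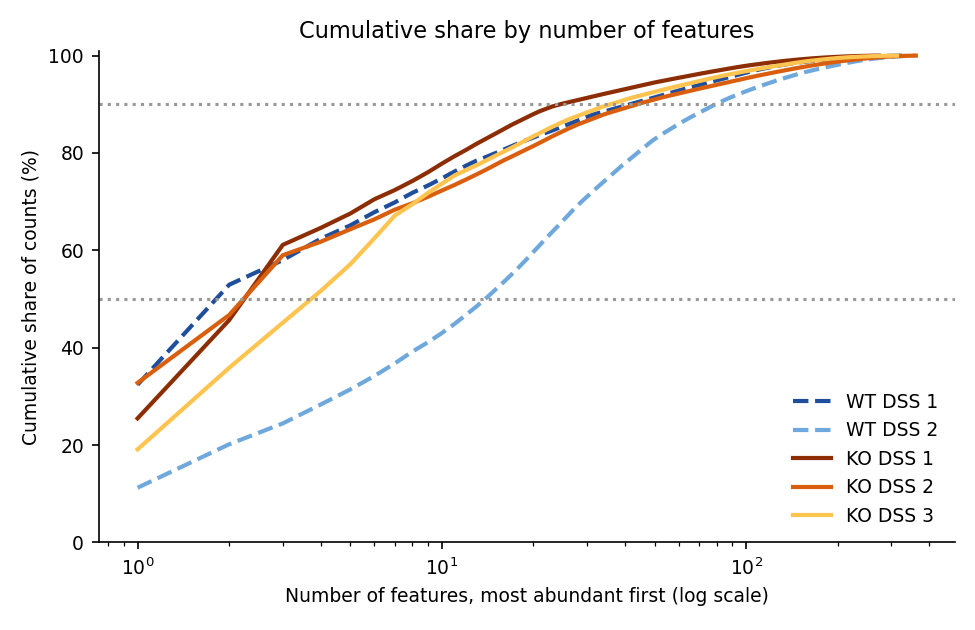
Cumulative share of counts (%) against the number of features, most abundant first (log scale), for WT (dashed) and KO (solid) DSS samples; dotted lines mark 50% and 90%. WT DSS 2 crosses 50% at 14 features and the other 4 samples at 2 to 4.

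Basal samples measured the same way showed a similar contrast within WT. Their Pielou evenness was 0.508 and 0.754 in WT and 0.651 and 0.673 in KO. Both WT groups therefore held a dominated and an even sample. All 3 KO DSS samples lay below both KO basal samples. The genotype difference was 0.0310 in basal samples against −0.0837 in colitis, and the gap of −0.115 between these had an exact two-sided permutation p of 0.417 over 60 arrangements of genotype within treatment. It was 0.00837 without WT basal 1.

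Most of the counts lay in features that both genotypes carried. Of the 584 features, 132 were found in all 5 samples, and they held 91.8%, 87.9% and 90.7% of the KO samples and 89.2% and 76.5% of the WT samples. The KO mean was 7.28 percentage points higher (exact two-sided permutation p = 0.2). Without WT DSS 2 it was 1.14 points higher, for the features found in all remaining samples, a different set from the 132. All but 1 of the 132 were also found in a basal sample. Another 218 features were found in both genotypes but not in all 5 samples. Being shared did not mean being steady: the highest of a shared feature's 5 shares was a median of 17.6 times the lowest, with a range from 1.97 to 1347 times. Of the shared features, 25 had a highest share over 100 times the lowest, and these held 41.1% to 53.4% of each sample. A further 40 stayed within 10-fold, and these held 5.98% to 11.4%.

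Among features above 0.5% in all 5 samples, rank 17 was the steadiest, at 0.695% and 1.51% of the WT and 1.29%, 1.11% and 1.00% of the KO samples. In basal samples it held 0.0123% to 0.433%, below all 5 DSS samples. Rank 8 held 1.47% and 3.89% of the WT and 1.52%, 1.05% and 1.88% of the KO samples, with 1.33% to 3.64% in basal samples. Ranks 1 and 8 were the only features above 1% in all 5 DSS samples.

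Features seen in 1 genotype only during colitis were many and scarce. Among the DSS samples, KO alone held 141 of the 584 features (24.1%) and WT alone 93 (15.9%), from 3 and 2 samples. Of the 141, 58 were found in a WT basal sample, and of the 93, 36 were found in a KO basal sample. The features of 1 genotype made up 1.86%, 1.66% and 2.83% of the counts of the KO DSS samples and 1.44% and 2.60% of the WT DSS samples. Most were found in a single sample, 103 of the 141 and 77 of the 93. No feature of either kind passed 1.20% of a sample.

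**Figure D3:**
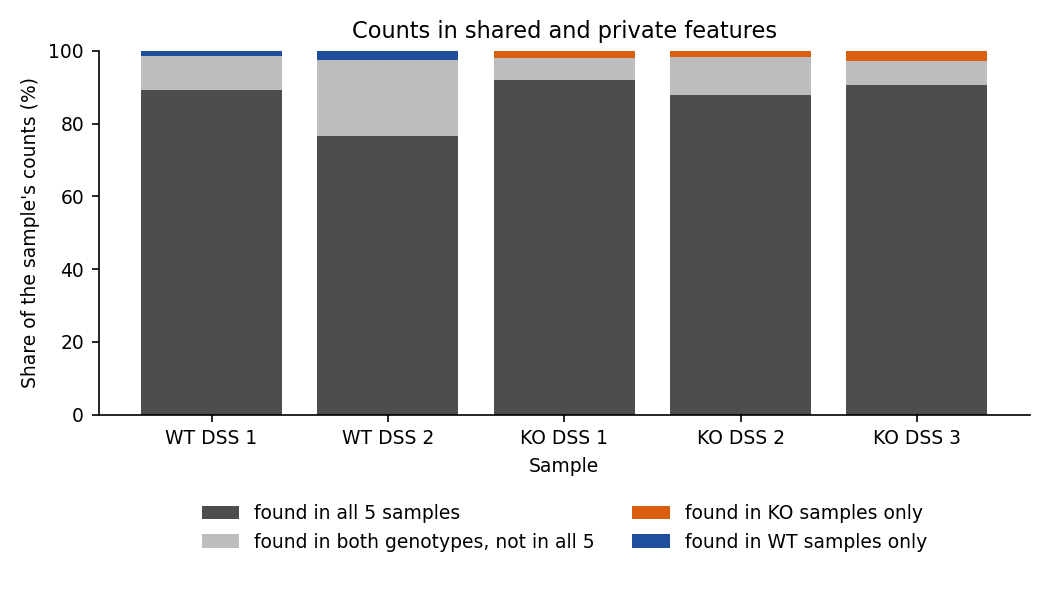
Share of each DSS sample's counts (%) in features found in all 5 samples, in both genotypes but not in all 5, in KO samples only and in WT samples only, as stacked bars. Features of all 5 samples hold 76.5% of WT DSS 2 and 87.9% to 91.8% of the others.

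Among the DSS samples, only 6 of the 584 features (1.03%) were found in every KO and no WT sample, and 16 (2.74%) in both WT and no KO sample. With a limit of 10 counts for a feature to count as found, the numbers were 3 and 18. When the KO group was cut to 2 samples, KO DSS 1 and KO DSS 2 had 24 such features and WT 29. KO DSS 2 and KO DSS 3 had 16 against 21, and KO DSS 1 and KO DSS 3 had 10 against 39. The 6 KO features held 0.181%, 0.105% and 0.150% of the KO samples, and each was found in a WT basal sample. The 16 WT features held 0.772% and 0.386% of the WT samples, and 10 of them were found in no basal sample.

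The most abundant of the 6 was feature df380b478606f5eb0635148f0c20ce8e, of rank 171, at 0.0567%, 0.0246% and 0.101% of the KO samples. Its KO mean of 0.0607% was at least 81.4-fold above what 3 counts in each WT library would give, or at least 54.4-fold without KO DSS 3 (edgeR adjusted p = 0.523). Outside colitis it was found in both WT basal samples, at 0.0216% and 0.0384%. Ranks 236, 244, 304 and 412 came next. Rank 244 was the most level of these, with 0.0351%, 0.0214% and 0.0274%. Ranks 236, 304 and 412 had from 6 to 292 counts in a sample. Feature c29240d7cccbbbac2bc7ba295f9b2bd5, of rank 187, was the most abundant of the 16, at 0.138% and 0.0226% of the WT samples. Its WT mean was at least 104-fold above 3 counts in each KO library, or at least 29.5-fold without WT DSS 1 (edgeR adjusted p = 0.523). It was also found in WT basal 1, at 0.00524%, and in KO basal 2, at 0.287%. A level of 3 counts corresponds to 0.000664% to 0.000830% of a DSS library. How low counts were treated before the table was made is not given in the sources used here, and these bounds are too high if low counts were removed.

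The next 4 of the 16, ranks 207, 209, 212 and 217, kept nearly the same proportions. Their shares were 0.103%, 0.102%, 0.0935% and 0.0833% in WT DSS 1 and 0.0340%, 0.0298%, 0.0356% and 0.0329% in WT DSS 2, and none was found in any other sample. With ranks 238, 260 and 270 they formed a set of 7 features whose count ratios to rank 207 changed by at most 1.29-fold between the samples. The sum of the set was 0.546% in WT DSS 1 and 0.194% in WT DSS 2.

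Sets of this kind were common. Kept features were grouped where they were found in the same of the 9 samples and kept their count ratio within 1.5-fold, a rule chosen after the values were seen. It placed 63 features in 21 sets. For a set found in 2 samples, such as that led by rank 207, the ratio is compared only between those 2. How many sets would form among unrelated features was not tested. Ranks 144, 159, 184, 185 and 322 were found in both WT DSS samples and KO DSS 3 alone, with sums of 0.539%, 0.195% and 0.0924%. A set of 6 led by rank 109 summed to 0.400% of WT DSS 1 and 0.481%, 0.273% and 0.356% of the KO samples, and was not found in WT DSS 2. In basal samples it was found in WT basal 1 and KO basal 2. Ranks 129, 205, 239 and 255 were found in KO DSS 1 and KO DSS 2, with sums of 0.233% and 0.375%, and in KO basal 1. Counting each set once, the 16 WT features were 8 units and the 6 KO features remained 6.

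**Figure D4:**
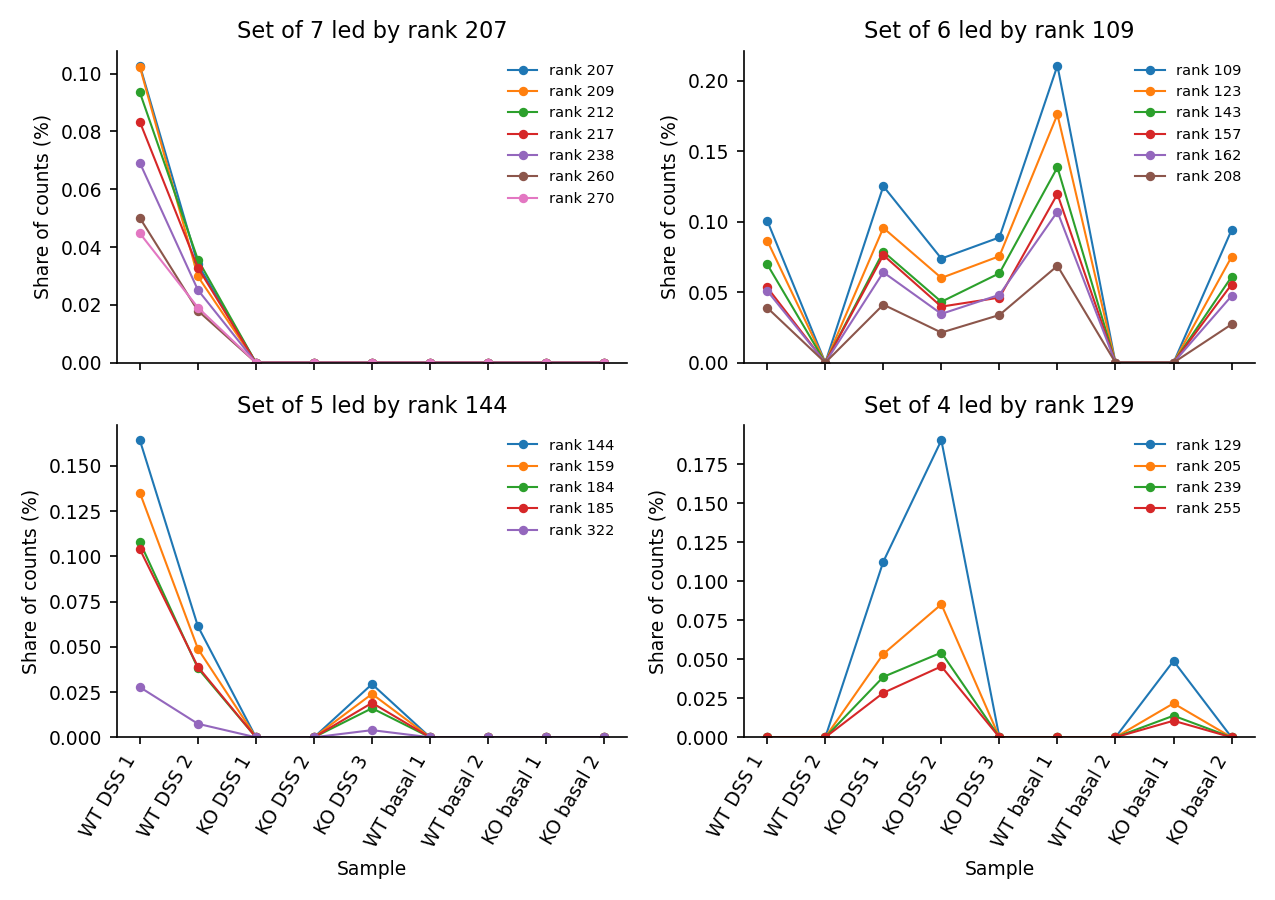
Share of counts (%) in all 9 samples of the features of 4 sets that kept a near-constant count ratio, with 1 line per feature; lines join samples for reading only. By the rule that made the sets, the lines of a set reach 0 in the same samples and are high together. The set led by rank 207 is found in WT DSS 1 and WT DSS 2 alone.

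Across all kept features, edgeR's quasi-likelihood test called 0 of 377 between KO and WT colitis at an adjusted p of 0.05, which is 0% of those tested. At an unadjusted p under 0.05 there were 14 higher in KO (3.71%) and 20 lower (5.31%), or 10 and 12 with each set counted once. The smallest adjusted p was 0.523. In simulated data with the estimated dispersion (a feature's spread between samples), edgeR called only 14% of features given the largest change. The 0 calls therefore cannot show that no feature differed. DESeq2 called 29 (7.69%), 19 higher and 10 lower in KO, and limma on centred log-ratios called 0, with 24 at an unadjusted p under 0.05. In the same simulated data limma called 31.3% of features given the largest change. DESeq2 called 6.97% of unchanged features where others were changed, and 1.5% where none was. Its 29 calls are therefore not taken as established differences. Without KO DSS 3 the calls were 0 in edgeR, 39 in DESeq2 and 0 in limma. The 29 DESeq2 calls made 18 units with sets counted once. Of the 29, 27 were of features found in 1 genotype only, which passed the filter through that genotype alone.

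The exceptions were ranks 23 and 82. Rank 23 held 2.93%, 0.630% and 0.00420% of the KO samples and 0.0157% and 0.0417% of the WT samples, so the groups overlapped through KO DSS 3. Rank 82 held 0.0368% and 0.556% of the WT samples and 0.00270% of KO DSS 2, and was not found in the other KO samples. These were picked out after their values were seen.

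The features of smallest p in edgeR were all seen in 1 genotype among the DSS samples. Each passed the filter of 10 counts in 2 samples through that genotype alone. A large difference was therefore built into their selection, and their small p-values are not separate support for it. Higher in KO were ranks 171, 70, 115, 129 and 165, of which only rank 171 was found in all 3 KO samples. Rank 70 held 0.0556% of KO DSS 1 and 0.702% of KO DSS 3. Ranks 115, 129 and 165 were found in KO DSS 1 and KO DSS 2 alone among the DSS samples, at 0.0113% to 0.214%. Lower in KO were ranks 187, 207, 209, 212 and 217, which are 2 units once the set is counted once. All 10 had an edgeR adjusted p of 0.523.

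Shares that did not overlap between the genotypes were more often higher in WT. Both WT samples lay above all 3 KO samples for 63 of 377 features (16.7%), and all 3 KO samples lay above both WT samples for 16 (4.24%). With each set counted once these were 51 and 16. With shares scaled by TMM factors the counts were 52 and 20. Without KO DSS 3 they were 92 and 50 with library totals and 86 and 57 with TMM factors. Under random arrangement of all 3 and 2 samples, a feature without ties meets each pattern with a probability of 0.1. KO above WT also needs counts in all 3 KO samples, while WT above KO needs them in 2 samples only. The filter therefore fixed part of the outcome. All 15 kept features found in WT alone passed it through both WT samples, and so had to count as WT above KO. Of the 29 kept features found in KO alone, 24 were in 2 KO samples and could not count as KO above WT. The other 5 were in all 3 KO samples and had to count as KO above WT. Whether the larger number for WT goes beyond these limits was not tested. The median log2 difference of all 377 features was −0.15 with TMM factors, −0.54 with library totals and 0.08 with DESeq2. With TMM factors it was 0.33 without WT DSS 1, 0.73 without WT DSS 2 and −0.81 without KO DSS 3, so leaving out either WT sample turned its sign.

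Of the 63, the 5 with a WT mean above 1% were ranks 3, 15, 22, 25 and 34. Rank 15 was level within WT, at 2.71% and 2.76%, and held 0.227%, 0.663% and 0.148% of the KO samples. Its basal shares ran from 0.246% to 5.06%, which takes in both WT samples and KO DSS 2, while KO DSS 1 and KO DSS 3 lay below. Ranks 22 and 25 were carried by WT DSS 2, with 4.28% and 3.09% there and 0.0837% and 0.0968% in WT DSS 1, against at most 0.0508% in any KO sample. Rank 34 was carried by WT DSS 1, at 1.97% against 0.0994% in WT DSS 2. These 5 features held 37.3% and 21.5% of the WT samples and 0.383%, 0.821% and 4.89% of the KO samples.

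Of the 16 higher in KO, rank 20 alone had a KO mean above 1%. It held 0.995%, 1.98% and 0.837% of the KO samples and 0.147% and 0.776% of the WT samples. Rank 31 was more clearly apart, at 0.603%, 0.780% and 0.793% of the KO samples and 0.0833% and 0.0384% of the WT samples. Its mean was 11.9 times as high in KO, and its basal shares were 0.384% and 0.402% in KO and 0.211% and 0.0507% in WT. These are descriptions of features singled out by their shares. Among the 377 features tested, the edgeR adjusted p was 0.995 for rank 20 and 0.654 for rank 31.

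To compare whole samples, Bray-Curtis distances were taken, from 0 (identical shares) to 1 (no feature in common). KO DSS 1 and KO DSS 2 were the closest pair, at 0.301, and shared 6 of their 10 most abundant features. KO DSS 3 was 0.648 and 0.724 from them, sharing 2 and 1 of the top 10. The 2 WT samples were 0.647 apart and shared 5. Between genotypes the 6 distances ran from 0.551 to 0.769, with KO DSS 3 closest to WT DSS 1 and farthest from WT DSS 2. The mean was 0.647 between and 0.580 within genotypes, a difference of 0.0667 (exact one-sided permutation p = 0.4, smallest possible 0.1). Leaving out KO DSS 1 gave −0.0279, KO DSS 2 −0.00525 and KO DSS 3 a gap of 0.166. KO DSS 3 lay 0.465 from WT basal 1, 0.478 from KO basal 1 and 0.493 from KO basal 2, nearer than to any DSS sample. From WT basal 2 it was 0.698. WT DSS 1 was also nearest to a basal sample, KO basal 2 (0.533), as was WT DSS 2 to WT basal 2 (0.537). Only KO DSS 1 and KO DSS 2 were nearest to a DSS sample, each other.

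In presence rather than share, the pair KO DSS 1 and KO DSS 2 had 227 features in common, 83.2% of those of the first and 62.9% of those of the second. Of its own features, KO DSS 3 shared 56.9% with KO DSS 1, 68.7% with KO DSS 2, 66.8% with WT DSS 1 and 67.4% with WT DSS 2. The features that 2 samples shared held 86.1% to 98.6% of the counts of either. The 10 features with the largest contributions made 57.6% of the mean distance between genotypes.

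**Figure D5:**
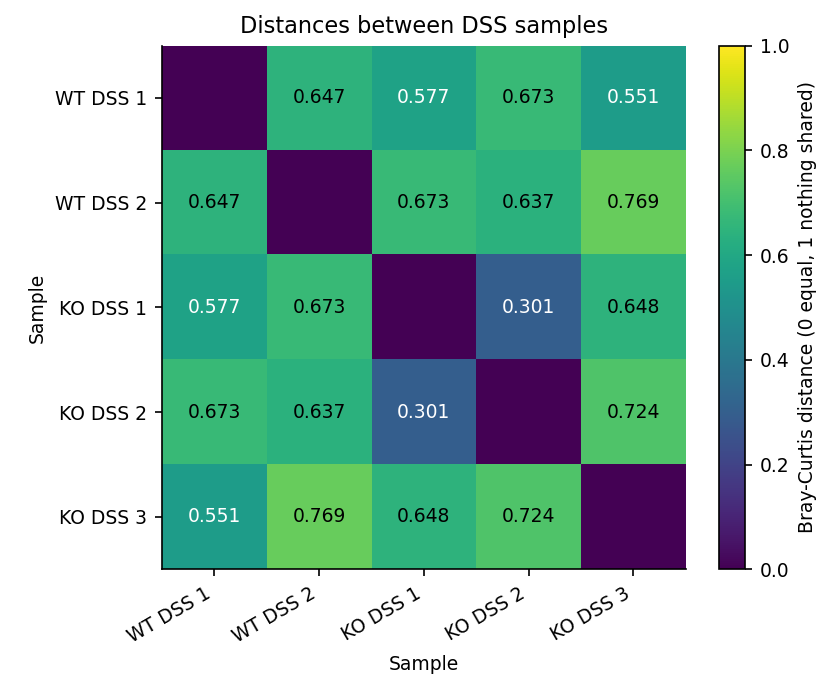
Bray-Curtis distance between each pair of the 5 DSS samples, from 0 (dark) to 1 (light), with the value in each cell. The pair KO DSS 1 and KO DSS 2 stands out at 0.301, and the other 9 pairs lie between 0.551 and 0.769.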

How the data were processed

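DNA from colon content was sequenced in paired-end mode on an Illumina MiniSeq with custom primers, per the labels' protocols. For the amplified region, read merging or denoising, and filters, nothing is given in the sources used here. The authors deposited whole-number counts per sequence feature, not normalized, in a table of 782 features and 16 sample columns. Of these, 9 carry the description of a sample and were analysed, and 7 were not used.

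Titles gave each sample its group and replicate number. Features with 10 or more counts in at least 2 of the 5 DSS samples were fitted with edgeR 4.0.16 in R 4.3.3 (TMM factors, quasi-likelihood F-test, Benjamini-Hochberg adjustment over all 377). Each standard error is the log2 difference divided by √F. TMM factors ran from 0.741 in WT DSS 1 to 1.96 in WT DSS 2. Alternatives included DESeq2 1.42.0, which gave no adjusted p to 93 features, and limma 3.58.1 (centred log-ratios, 0.5 added to every count). Indices and exact permutation tests used SciPy 1.17.1, pandas 2.3.3 and NumPy 2.4.6 under Python 3.11.15, with matplotlib 3.10.9 for the figures. The code was tested on simulated data. With the estimated dispersion, edgeR called 0.667% of features changed 16-fold, the smallest change, and 14% at the largest. It called 54% of the 16-fold changes with dispersion set to 1. The median dispersion of the fitted features was 3.47.

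Named features are those above 5% of any DSS sample, the 5 of smallest p in each direction, and the 5 of highest mean share among those found in every sample of 1 genotype and none of the other. Others are named as picked out by their shares. The samples, rules and tests were chosen with earlier results of these data known. Lists of taxa could not be used without names.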

Additional observations from a re-analysis of the deposited data

How the results depend on the processing

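The count of 0 called features held under library totals, limma, no filter (584 features), 10 or more counts in at least 3 samples (266 features), all 9 samples in 1 fit, summed sets, and each sample left out, where a lone WT sample is assumed to vary like the rest. DESeq2 called 29. KO and WT samples share replicate numbers 1 and 2 only, and nothing in the labels pairs them. Samples with the same number had deviations from their group means that correlated at 0.227 and 0.318. The deviations of the 2 WT samples mirror each other, so crossing the numbers gave −0.227 and −0.318, and these values are not separate evidence of pairing. A replicate block left 0 called, with 24 at an unadjusted p under 0.05. That block turned the log2 difference of rank 5 to −1.93, rank 6 to −1.63, rank 7 to −3.47 and rank 13 to −3.12, since KO DSS 3 then has no partner. Limma turned rank 7 to −0.56 and rank 13 to −0.29. Rank 6, near 0, was −0.11 with the stricter filter, −0.12 with all 9 samples and −0.19 with summed sets. Leaving out a sample gave log2 differences of −0.27 to 4.50 for rank 1, −2.24 to 8.004 for rank 5, −1.42 to 5.12 for rank 6, −2.83 to 2.76 for rank 7 and −3.61 to 4.49 for rank 13. Rank 1 turned without WT DSS 2, ranks 5, 7 and 13 without KO DSS 3, and rank 6 without either.

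Leaving out a sample gave −1.17 to 0.0937 for the Shannon index (−0.538 with all 5, exact permutation p = 0.4), −0.187 to 0.0194 for Pielou evenness, −0.198 to 31.6 points for the 10 most abundant features, −0.0279 to 0.166 for the distance (−0.00525 without KO DSS 2) and −0.238 to 0.00837 for evenness in colitis against basal. Features found in every KO and no WT sample numbered 10 to 24 with a sample left out and 3 at a limit of 10 counts, and the reverse 21 to 62, since fewer samples have to agree. Richness and the share of features common to all samples kept their direction throughout. The left-out samples for evenness against basal, the summed sets, the TMM-scaled shares and the tools run without KO DSS 3 were chosen after seeing the data.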
